A study of Mus musculus with 6 samples.

Results

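The CCAAT/enhancer-binding proteins (C/EBPs) are a small family of basic leucine zipper transcription factors. The family members named here are C/EBPα, C/EBPβ, C/EBPδ, C/EBPε and C/EBPγ, and they were chosen by name alone. Of these 5 genes, 4 (Cebpa, Cebpb, Cebpe and Cebpg) were analysed here, out of 27998 genes in the table. All 4 passed the minimum of a mean of 20 CPM, where CPM is the count of a gene per 1000000 counts of its library.

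C/EBP proteins bind DNA as dimers, with each other or with related zipper proteins, and most of them activate the genes they bind. In the bone marrow C/EBPα is needed for progenitors to enter the granulocyte path and restrains their division, C/EBPε is needed for the late granule proteins of neutrophils and for eosinophil maturation, and C/EBPβ drives emergency granulopoiesis and macrophage genes. C/EBPγ has no activation domain of its own and acts mainly as a partner of the others and of ATF4.

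Single-cell RNA of immortalized mouse granulocyte-macrophage progenitors (iGMPs) was counted in 6 libraries, 1 per group. All cells were C57BL/6 bone marrow cells that carried a green reporter at the lysozyme locus (Lys-GFP) and a HOXA9 protein fused to an estrogen receptor domain (ER-HOXA9), so that estradiol kept HOXA9 active and the cells undifferentiated. In the CAF-1 OFF arm a cell clone with an IPTG-inducible short hairpin RNA to Chaf1b, which encodes part of the CAF-1 complex that loads histones onto new DNA, was grown for 0, 48 or 96 h, with 500 µM IPTG at the later times and 150 ng/ml estradiol throughout. In the HOXA9 OFF arm a control clone was taken at 0 h with 150 ng/ml estradiol or 48 or 96 h after estradiol was washed out. Stem cell factor was in all media and live cells were sorted. Each arm is 1 clone and each time is 1 library, so clone, arm and library cannot be told apart, and no difference has a replicate check.

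After filtering, the libraries held 473 to 1510 cells and 3524285 to 5589486 unique molecular identifiers (UMIs, each a single captured molecule). The median cell held 8660, 3535.5 and 2043.5 UMIs at 0, 48 and 96 h of HOXA9 OFF and 5956 to 6571 UMIs under CAF-1 OFF, and the filter removed 0.198% to 66.2% of the barcodes of a library. Among kept cells, 16 barcode sequences occurred in more than 1 library, in 32 cells. Chaf1b, the target of the hairpin, was at 35.6, 3.22 and 6.49 CPM under CAF-1 OFF at 0, 48 and 96 h, and at 51.5, 15.3 and 1.13 CPM under HOXA9 OFF. Hoxa9 RNA checks nothing about estradiol withdrawal, which acts on the protein. The progenitor label could be checked against Mpo, at 1451 and 978 CPM in the CAF-1 OFF and HOXA9 OFF libraries at 0 h, while the late neutrophil gene Ltf was at 0 in both.

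On GRCm38.p6 Cebpa lies at chr7:35119293-35121928 and Cebpg at chr7:35046422-35056566. They are neighbours with 62726 bases between them, in which RefSeq places 2 genes without a descriptive name. Cebpb lies at chr2:167688915-167690432 and Cebpe at chr14:54710363-54712174. RefSeq promoters were matched for 3 of the 4 members, and the 250 bases before their start sites are shown because the levels of these genes differed after induction. Capitals mark matches, on either strand, to the C/EBP motif TTGCNNAA, the CCAAT box, the CRE half-site TGACG and the TATA box TATAAA.
Cebpa, chr7:35119043-35119292, plus strand: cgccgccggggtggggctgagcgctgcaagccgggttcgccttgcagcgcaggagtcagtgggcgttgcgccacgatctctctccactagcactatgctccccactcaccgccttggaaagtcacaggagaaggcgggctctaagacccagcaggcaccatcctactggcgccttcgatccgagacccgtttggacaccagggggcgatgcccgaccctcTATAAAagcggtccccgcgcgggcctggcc
Cebpb, chr2:167688665-167688914, plus strand: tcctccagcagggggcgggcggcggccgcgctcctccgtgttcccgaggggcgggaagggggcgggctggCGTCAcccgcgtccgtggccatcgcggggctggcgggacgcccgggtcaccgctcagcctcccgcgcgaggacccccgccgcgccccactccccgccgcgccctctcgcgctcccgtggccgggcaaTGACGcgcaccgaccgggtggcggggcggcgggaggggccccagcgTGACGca
Cebpg, chr7:35056567-35056816, minus strand: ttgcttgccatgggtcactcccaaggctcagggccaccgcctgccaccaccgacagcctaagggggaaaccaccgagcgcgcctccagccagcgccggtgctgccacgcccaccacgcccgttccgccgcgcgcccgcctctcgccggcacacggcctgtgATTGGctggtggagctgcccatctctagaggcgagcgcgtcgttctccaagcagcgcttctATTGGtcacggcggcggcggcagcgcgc
Each of the 3 windows held 1 kind of motif, so that no matches of different motifs overlapped. The Cebpb window held 3 matches to TGACG, found in 17.8% of all 32851 promoters of this length, the Cebpg window 2 CCAAT boxes (33.8% of promoters) and the Cebpa window 1 TATAAA (12.4% of promoters). None of the 3 held TTGCNNAA, which 9.56% of promoters held.

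Some genes known for granule proteins and described further down did hold TTGCNNAA in the 250 bases before the start. Of 8 matched genes of a list of 9 secondary granule genes, 4 did, and of 6 primary granule genes, 1 did. Of 3 matched genes of a list of 5 cytokine receptors, 0 did. These counts stand beside 9.56% of all promoters. A single match of each granule gene that held the motif is shown, in capitals, within up to 15 bases on either side (Ngp and Fcnb held another, 11 and 235 bases before the start). They are shown since these genes differed between the arms beside a like Cebpe level.
Ltf, chr9:111019202-111019239, plus strand: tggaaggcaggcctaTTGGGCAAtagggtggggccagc
Ngp, chr9:110419655-110419692, plus strand: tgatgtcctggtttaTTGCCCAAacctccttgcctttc
Lcn2, chr2:32387933-32387970, minus strand: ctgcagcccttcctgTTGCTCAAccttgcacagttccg
Mmp8, chr9:7558395-7558428, plus strand: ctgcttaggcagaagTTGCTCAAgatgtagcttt
Fcnb, chr2:28084979-28085016, minus strand: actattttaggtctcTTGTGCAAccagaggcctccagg
A match in these letters is a description of the sequence and no measurement of binding.

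Cebpe and Cebpb were at least 2-fold higher after induction at both times in both arms (2 of 4 members), and Cebpa and Cebpg were not called in either direction. A gene was called at 2-fold on the log2 scale after 10 CPM was added to both levels. Under CAF-1 OFF both called members stand against 2.76% of 4789 genes that were at least 2-fold higher at 48 h and 5.22% at 96 h, and under HOXA9 OFF against 13% and 18.1%. No member was at least 2-fold lower, against 0.0418% and 0.856% of genes under CAF-1 OFF and 19.6% and 39.8% under HOXA9 OFF. The median log2 ratio of all these genes was 0 and -0.08 under CAF-1 OFF and -0.23 and -0.56 under HOXA9 OFF, and the values of the members are to be read beside it. A summed level does not tell fewer cells with the transcript from less RNA per cell, for which the shares of cells are given further down.

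**Figure D1:**
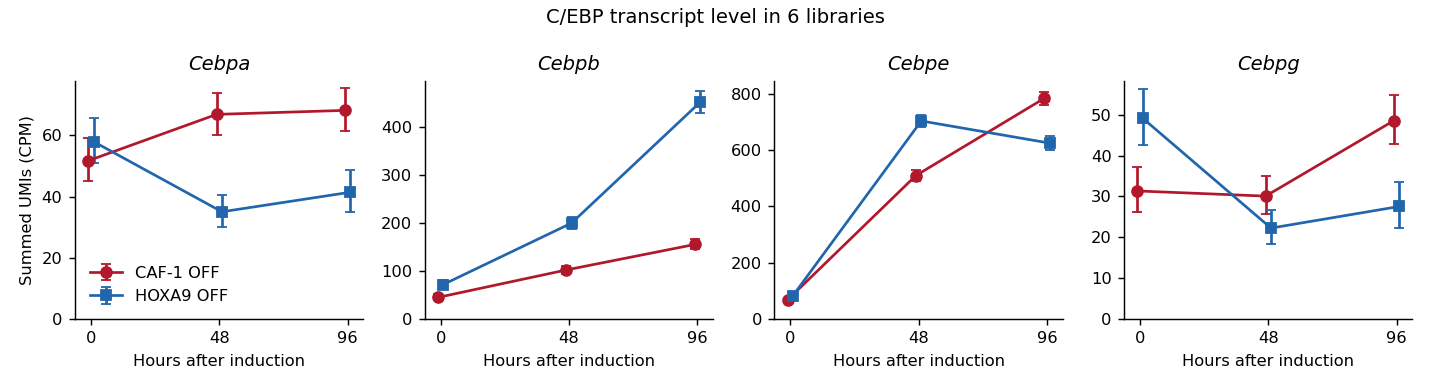
CPM of summed UMIs (y axis, linear from 0) against hours after induction (x axis) for Cebpa, Cebpb, Cebpe and Cebpg in the CAF-1 OFF (circles) and HOXA9 OFF (squares) libraries, 1 library per point, with exact 95% Poisson intervals of the counts. Cebpe reached 785 CPM under CAF-1 OFF and 704 CPM under HOXA9 OFF, Cebpb 452 CPM under HOXA9 OFF, and Cebpa stayed between 35.0 and 68.2 CPM.

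Cebpe, the factor of late granulocyte maturation, had the largest ratios of the 4. It was at 67.4 CPM (95% interval 59.8 to 75.7, 284 UMIs) before Chaf1b knockdown. After 48 h it was at 510 CPM (492 to 529) and after 96 h at 785 CPM (761 to 809). Under HOXA9 OFF it was at 82.3 CPM (73.9 to 91.5), 704 CPM (682 to 727) and 625 CPM (600 to 652). The 2 uninduced libraries were both low and all 4 induced ones high, with no overlap of the intervals. The folds over 0 h were 7.57 (6.70 to 8.58) and 11.6 (10.3 to 13.2) under CAF-1 OFF and 8.55 (7.66 to 9.58) and 7.60 (6.78 to 8.53) under HOXA9 OFF. From 48 to 96 h Cebpe was 1.54-fold higher under CAF-1 OFF and 1.13-fold lower (1.07 to 1.19) under HOXA9 OFF. Its log2 ratio at 48 h of CAF-1 OFF was above that of 99.8% of the genes tested, and at 96 h of HOXA9 OFF above that of 94.9%.

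Cebpb was at 44.6 CPM (38.5 to 51.5), 102 CPM (93.8 to 111) and 155 CPM (145 to 166) under CAF-1 OFF. Under HOXA9 OFF it was at 71.6 CPM (63.7 to 80.2), 200 CPM (188 to 212) and 452 CPM (430 to 475). The order of the libraries was the same in both arms, 0 h lowest and 96 h highest, and no 2 libraries of an arm had overlapping intervals. The folds over 0 h were 2.29 (1.94 to 2.71) and 3.48 (2.97 to 4.10) under CAF-1 OFF and 2.79 (2.45 to 3.19) and 6.31 (5.58 to 7.17) under HOXA9 OFF. Of the members, Cebpb was the only one past 2-fold between 48 and 96 h, under HOXA9 OFF (2.26-fold, with 6.56% of genes higher and 17.8% lower by that size) and not under CAF-1 OFF (1.52-fold, with 0.71% higher and 0.167% lower). The call at 48 h of CAF-1 OFF was at the size limit, with a log2 ratio of 1.04 that became 0.97 with median-of-ratios scaling, 0.98 in cells of at most 5% mitochondrial UMIs and 0.68 with a pseudocount of 50 CPM.

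Cebpa, the factor of granulocyte entry, was at 51.7 CPM (45.1 to 59.1), 66.9 CPM (60.3 to 74.0) and 68.2 CPM (61.4 to 75.6) under CAF-1 OFF. Under HOXA9 OFF it was at 58.0 CPM (50.9 to 65.8), 35.0 CPM (30.2 to 40.4) and 41.4 CPM (35.0 to 48.7). Both induced CAF-1 OFF libraries were above their 0 h library and both induced HOXA9 OFF libraries below theirs. The folds were 1.29 (1.09 to 1.54) and 1.32 (1.11 to 1.57) under CAF-1 OFF, and the levels were 1.66-fold lower (1.36 to 2.02) and 1.40-fold lower (1.14 to 1.73) under HOXA9 OFF. The log2 ratio of -0.40 at 96 h of HOXA9 OFF was above the median of all genes in that comparison, -0.56, and it was 0.00066 with TMM scaling and 0.068 with median-of-ratios scaling. Under CAF-1 OFF at 96 h the log2 ratio of 0.34 became -0.00069 in cells of at most 5% mitochondrial UMIs, of which 165 were left. The direction of Cebpa at 96 h therefore changed with these settings in each arm.

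Cebpg, the partner without an activation domain, was at 31.3 CPM (26.2 to 37.1), 30.1 CPM (25.7 to 35.0) and 48.6 CPM (42.9 to 54.8) under CAF-1 OFF. Under HOXA9 OFF it was at 49.2 CPM (42.7 to 56.4), 22.2 CPM (18.4 to 26.6) and 27.5 CPM (22.3 to 33.6). The 96 h library of CAF-1 OFF stood above the other two of its arm, and the 0 h library of HOXA9 OFF above its other two. Cebpg was 1.04-fold lower (0.823 to 1.32) at 48 h and 1.55-fold higher (1.25 to 1.93) at 96 h under CAF-1 OFF, and 2.21-fold lower (1.76 to 2.80) and 1.79-fold lower (1.40 to 2.30) under HOXA9 OFF. On the log2 scale with 10 CPM added, which shrinks ratios of low genes, the 48 h value of HOXA9 OFF was -0.88, and it was past the 2-fold size with a pseudocount of 1 CPM (-1.11) and in cells of at most 5% mitochondrial UMIs (-1.10). The value of -0.66 at 96 h passed the size (-1.04) when mitochondrial and ribosomal protein genes were left out of the total.

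Counted per cell, the arms stood further apart for Cebpa, as the median UMI count per cell was lower under HOXA9 OFF at 48 and 96 h. Cebpa was at 33.7, 40.3 and 40.4 UMIs per 100 cells under CAF-1 OFF and at 51.4, 13.2 and 9.67 under HOXA9 OFF. Cebpe was at 43.9, 308 and 465 UMIs per 100 cells under CAF-1 OFF and at 72.9, 266 and 146 under HOXA9 OFF. Cebpb was at 29.1, 61.5 and 91.9 UMIs per 100 cells and at 63.4, 75.6 and 105, respectively.

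Before induction the 2 libraries differed beyond counting error in 3 of the 4 members. The share of all genes that did so was not computed, so this count is not read as particular to the family. At 0 h Cebpb was 1.61-fold (1.33 to 1.94) and Cebpg 1.57-fold (1.26 to 1.97) higher in the HOXA9 OFF library and Cebpe 1.22-fold (1.04 to 1.43), while the interval of Cebpa spanned no change (1.12-fold, 0.930 to 1.35). None of these 4 passed 2-fold, while 0.752% of genes were higher and 0.146% lower by that size. Ddit3, which encodes the C/EBP-type protein CHOP that lies outside the rule, did, at 382 CPM against 181 CPM (2.12-fold, 1.94 to 2.31). At 96 h the arms differed most in Cebpb, 2.91-fold (2.68 to 3.17) higher under HOXA9 OFF, while 15.6% of genes were higher and 37.8% lower by 2-fold. Cebpe was 1.26-fold lower (1.19 to 1.32), Cebpa 1.65-fold lower (1.36 to 2.01) and Cebpg 1.76-fold lower (1.39 to 2.25) under HOXA9 OFF than under CAF-1 OFF at that time.

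The make-up of the summed UMIs of the 4 analysed members, here called the family UMIs, changed with the levels. Cebpd and Ddit3 are not in this sum. The 4 members summed to 195, 709 and 1057 CPM under CAF-1 OFF and to 261, 962 and 1146 CPM under HOXA9 OFF. These UMIs are tags of the 3′ end, which carry no transcript length, so a share of them is a share of captured molecules. Cebpe held 34.5%, 71.9% and 74.3% of the family UMIs under CAF-1 OFF and 31.5%, 73.2% and 54.6% under HOXA9 OFF. Its share was close in both arms at 48 h, where the 95% intervals were 70.5% to 73.3% and 72.0% to 74.5%, and apart at 96 h (73.1% to 75.4% and 53.0% to 56.1%). Cebpb held 22.9%, 14.4% and 14.7% under CAF-1 OFF and 27.4%, 20.8% and 39.4% under HOXA9 OFF. Cebpa went from 26.5% to 6.46% under CAF-1 OFF and from 22.2% to 3.61% under HOXA9 OFF by 96 h, and Cebpg from 16.1% to 4.60% and from 18.8% to 2.40%. At 96 h the UMIs of these 4 members under CAF-1 OFF were thus mostly Cebpe, and under HOXA9 OFF mostly Cebpe and Cebpb.

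**Figure D2:**
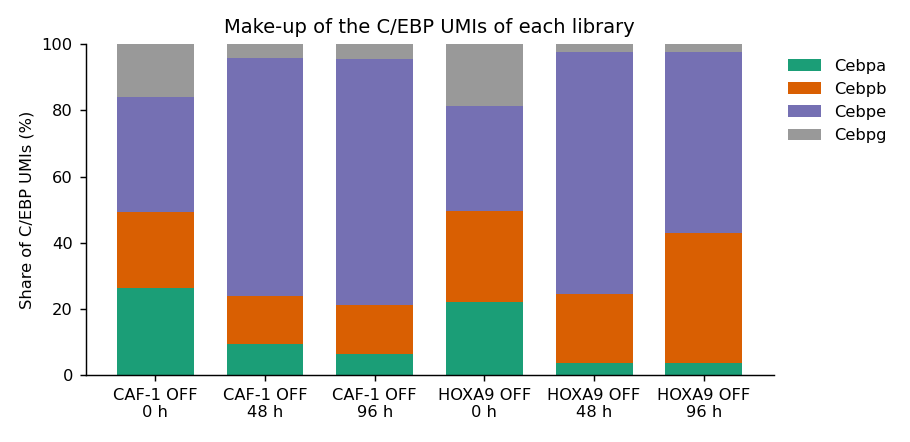
Share of the UMIs of the 4 C/EBP members (y axis, percent) held by each member in each of the 6 libraries (x axis), as stacked bars. Cebpe makes up 71.9% and 73.2% of the bars at 48 h, and Cebpb 14.7% under CAF-1 OFF against 39.4% under HOXA9 OFF at 96 h.

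In single cells the share with a UMI depends on the depth of the cell, so each cell was thinned to 1300 UMIs, which left 472 to 1376 cells a library. Cebpe was found in 7.11% (95% interval 5.23% to 9.40%), 41.1% (37.9% to 44.4%) and 61.2% (57.9% to 64.4%) of cells under CAF-1 OFF. In HOXA9 OFF cells it was found in 7.42% (5.22% to 10.2%), 48.8% (46.2% to 51.5%) and 45.1% (42.5% to 47.8%). Unthinned, the shares were 23.6%, 73.1% and 93.2% under CAF-1 OFF and 33.4%, 71.9% and 56.5% under HOXA9 OFF. The order of the libraries within an arm changed in neither arm between the thinned and unthinned shares. In CAF-1 OFF cells at 96 h, 27.9% held 2 or more Cebpe UMIs after thinning, against 1.11% at 0 h.

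Cebpb was found in 5.06%, 13.2% and 13.7% of thinned CAF-1 OFF cells and in 8.69%, 20.7% and 38.4% of HOXA9 OFF cells. These shares come from 1 random thinning. The share expected over all thinnings was 12.1% at 48 h and 17.8% at 96 h of CAF-1 OFF, and the latter lay above the interval of the single draw (11.6% to 16.2%), so the order of these 2 libraries is not read from the draw. The 48 and 96 h libraries of HOXA9 OFF had intervals of 18.6% to 23.0% and 35.8% to 41.0%. Cebpa was found in 7.54% to 8.38% of CAF-1 OFF cells and in 7.20%, 4.94% and 5.52% of HOXA9 OFF cells. Cebpg was found in 3.09% to 5.76% of CAF-1 OFF cells and in 2.47% to 5.30% of HOXA9 OFF cells. No cell type that should lack these genes was known in the cultures, so the share that free RNA gives could not be set, and shares of a few percent may hold it.

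**Figure D3:**
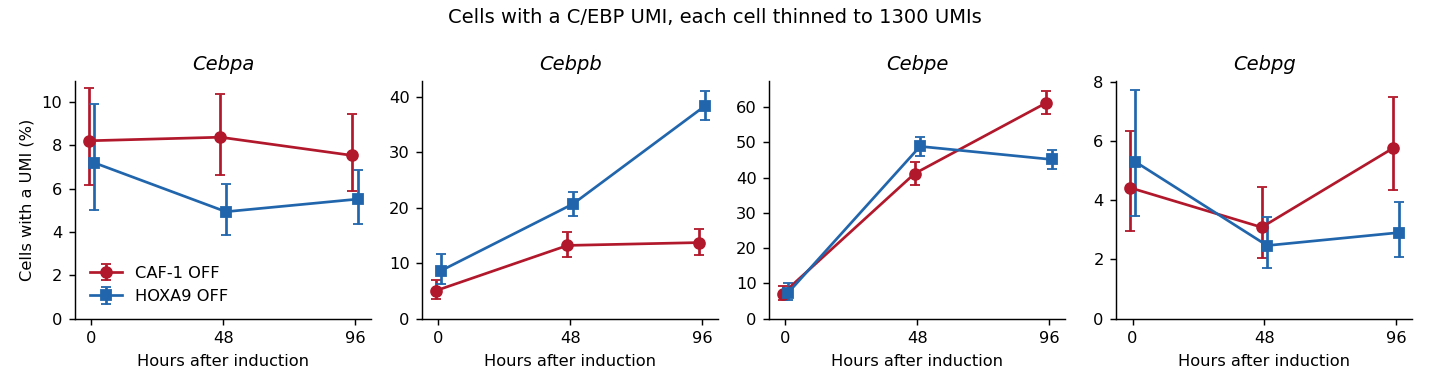
Share of cells with at least 1 UMI of each member (y axis, percent, linear from 0) against hours after induction (x axis), with every cell thinned to 1300 UMIs and exact 95% binomial intervals, in the CAF-1 OFF (circles) and HOXA9 OFF (squares) libraries, from 1 random thinning. Cebpe cells reach 61.2% and 48.8% in the arms and Cebpb cells 38.4% in HOXA9 OFF cells, while the Cebpb point of 13.7% at 96 h of CAF-1 OFF lies below the 17.8% expected over all thinnings.

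Few cells held several members at this depth. No UMI of any member was seen in 77.1%, 47.3% and 28.7% of CAF-1 OFF cells and in 74.6%, 37.1% and 29.5% of HOXA9 OFF cells, and no cell of any library held all 4. Cebpb and Cebpe were found together in 6.73% (5.18% to 8.56%) of the CAF-1 OFF cells taken at 48 h, where the product of the single shares was 5.44%. At 96 h they were together in 7.98% (6.30% to 9.95%) of CAF-1 OFF cells, beside a product of 8.41%, and in 15.4% (13.5% to 17.4%) of HOXA9 OFF cells, beside a product of 17.3%. Cebpa and Cebpe were together in 4.08% of the CAF-1 OFF cells taken at 48 h (product 3.45%) and in 4.55% at 96 h (product 4.61%). The product lay inside the interval in each of the 3 cases of Cebpb with Cebpe, but the share of both at 96 h of CAF-1 OFF was 10.7% when expected over all thinnings, above the interval of the draw. Before induction the pair of Cebpa and Cebpe was seen in 0 of 633 CAF-1 OFF cells, which allows a share of up to 0.474% by a limit of 3 counts and 0.581% by the exact interval, beside a product of 0.584%. Without the cells called by Scrublet, a doublet caller, the share in another draw was 0.852%.

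Cells with a Cebpe UMI carried more granule RNA under CAF-1 OFF at 48 h. Elane, a protease of primary granules, was found in 58.2% (53.0% to 63.2%) of the 373 cells with Cebpe and in 27.9% (24.1% to 31.9%) of the 534 without. Pf4, a platelet chemokine of megakaryocytes, was found in 45.8% (40.7% to 51.1%) of cells with Cebpe and in 20.6% (17.2% to 24.3%) of those without. By 96 h most cells held these transcripts with or without Cebpe. Elane was then in 64.9% and 54.6%, and Pf4 in 87.3% and 81.1%. Lists of mast cell and megakaryocyte genes were higher along with Cebpe over the CAF-1 OFF libraries. The monocyte list was not, as a sum, at 677, 732 and 647 CPM at 0, 48 and 96 h. Its genes differed, with Ccr2 at 501, 309 and 201 CPM and Ly6c2 at 32.3, 169 and 228 CPM. Of its 5 genes with a UMI, 1 was at least 2-fold higher at 96 h (Ly6c2) and 1 lower (Ccr2). These stand beside 5.22% and 0.856% of all genes tested. Mast cell genes summed to 259, 1427 and 3999.7 CPM (2 of 7 genes with a UMI at least 2-fold higher at 96 h). Tpsb2 and Gzmb were at 0 in every CAF-1 OFF library. Megakaryocyte genes summed to 45.8, 499.7 and 2687 CPM (3 of 5 at least 2-fold higher at 96 h, with Gp1bb at 0). The part of such cells in the Cebpe level was not tested. Median depths of the cells with and without Cebpe before thinning were close, 5816 and 6183.5 UMIs at 48 h.

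The cells of a library were also ranked by the share of their UMIs that a gene list held, and the lowest and highest 25% were compared. Tied cells were kept, so a set can be larger than 25%. At 48 h of CAF-1 OFF, Cebpe was at 164 CPM in the 231 cells with the least primary granule RNA and at 899 CPM in the 231 with the most (5.49-fold, 4.75 to 6.36). Between the same cells Cebpb was at 67.1 and 152 CPM, Cebpa at 78.9 and 44.7 CPM and Cebpg at 31.0 and 29.6 CPM. Cebpa was thus 1.77-fold lower (1.27 to 2.47) in the cells with the most primary granule RNA. The ranking was not by Cebpe itself. In thinned cells of this library Cebpe was found in 48.7% (37.0% to 60.4%) of cells with Cebpa. It was found in 40.4% (37.1% to 43.9%) of cells without Cebpa. At 96 h the Cebpe levels at the ends of the ranking (227 cells each) were closer, 533 and 982 CPM (1.84-fold), and under HOXA9 OFF at 48 h closer still, 665 and 777 CPM in 351 cells each (1.17-fold, 1.07 to 1.28). Such sets are ranges of a score and no cell types, and 109 CAF-1 OFF cells of 48 h lay within 10% of the upper limit.

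Under HOXA9 OFF at 96 h, Cebpb and Cebpe were ordered in opposite directions along the late neutrophil genes (S100a8, S100a9, Ngp, Lcn2, Mmp8, Camp, Ltf and Ly6g). Cebpb was at 747 CPM in the 377 cells lowest in these genes and at 250 CPM in the 377 highest, 2.99-fold lower (2.56 to 3.51). Cebpe was at 559 CPM in the lowest and 895 CPM in the highest cells (1.60-fold, 1.44 to 1.78), Cebpa at 20.3 and 51.2 CPM (2.52-fold, 1.48 to 4.40) and Cebpg at 37.1 and 22.5 CPM. The list itself made up at least 21.2% of the UMIs in the highest cells and at most 11.9% in the lowest. With its UMIs left out of the total, Cebpb was 2.31-fold lower, Cebpe 2.07-fold higher and Cebpa 3.27-fold higher in the highest cells. The median depth was 2643 UMIs in the lowest and 1900 UMIs in the highest cells, 336 cells lay within 10% of the upper limit, and the part of depth in these differences was not tested. In the other induced libraries Cebpb was ordered like Cebpe along these genes, but the list was made up differently under CAF-1 OFF. S100a8 and S100a9 were at 65260 and 48173 of the 143674 CPM of the list at 96 h of HOXA9 OFF. Under CAF-1 OFF Mmp8 and Lcn2 were at 582 and 117 of 715 CPM at 48 h. At 96 h they were at 724 and 428 of 1182 CPM, so the rankings of the 2 arms are unlike. At 48 h of CAF-1 OFF the lowest set was the 354 cells without a UMI of the list, 38.2% of the library. Cebpb was 1.33-fold higher (1.09 to 1.60) in the highest cells at 48 h of HOXA9 OFF. It was 1.77-fold (1.41 to 2.21) and 1.31-fold (1.06 to 1.61) higher in the highest cells at 48 and 96 h of CAF-1 OFF. Cebpa was lower there, by 1.96-fold, 1.65-fold and 1.25-fold, the last with an interval that spanned no change.

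**Figure D4:**
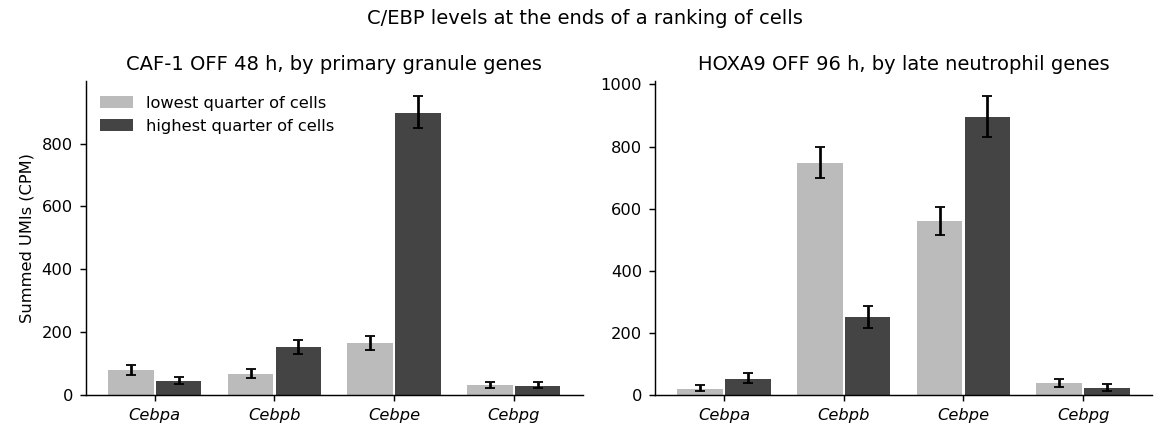
CPM of each member (y axis, linear from 0) in the lowest (light) and highest (dark) 25% of the cells of a library, ranked by primary granule genes under CAF-1 OFF at 48 h (left) and by late neutrophil genes under HOXA9 OFF at 96 h (right), 231 and 377 cells per bar, with exact 95% Poisson intervals. On the left Cebpe goes from 164 to 899 CPM, and on the right Cebpb goes from 747 to 250 CPM while Cebpe goes from 559 to 895 CPM.

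The shares of cells gave the same order. Ltf, the lactoferrin of secondary granules, was found in 43.0% (38.7% to 47.3%) of HOXA9 OFF cells with a Cebpb UMI at 96 h and in 60.1% (56.8% to 63.5%) of those without. For Cebpe the direction was the reverse, 61.7% (57.7% to 65.5%) with and 46.9% (43.3% to 50.5%) without. S100a8, a calcium-binding protein of all neutrophils, was in 98.9% to 99.5% of these cells whichever of the 2 members they held or lacked. The list of inflammatory genes summed to 1890 CPM in cells with Cebpb and 1312 CPM in cells without, and to 1462 and 1620 CPM with and without Cebpe.

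The summed eosinophil granule RNA was higher in cells with Cebpe in each of the 6 libraries. Prg2, the major basic protein of eosinophil granules, made up most of that list. Under CAF-1 OFF the list summed to 909, 1042 and 1773 CPM in cells with Cebpe and to 163, 67.3 and 416 CPM in cells without. Under HOXA9 OFF it summed to 6011, 26513 and 4673 CPM with and to 1092, 11983 and 2168 CPM without. At 0 h few cells carried these sums, with Prg2 found in 2 of 45 CAF-1 OFF cells and 5 of 35 HOXA9 OFF cells with Cebpe, and the intervals of its share with and without Cebpe overlapped. Later HOXA9 OFF sums also rested mostly on the cells richest in the list. The 351 highest cells at 48 h began at 0.304% of their UMIs, beside 19273 CPM in the library. At 96 h the 377 highest began at 0.0484%, beside 3248 CPM. The interval of the Prg2 share at 48 h was 57.7% to 65.2% with Cebpe and 46.2% to 53.8% without. Only 8.26% of cells then lacked a UMI of the list, and the part of free RNA was not tested. For Cebpb the order differed between libraries. The list was lower in cells with Cebpb at 0 h (57.0 against 226 CPM) and 48 h (303 against 485 CPM) of CAF-1 OFF and at 48 h of HOXA9 OFF (7152 against 22157 CPM). It was higher in cells with Cebpb at 96 h of CAF-1 OFF (1569 against 1182 CPM) and at 0 h (2327 against 1375 CPM) and 96 h (4186 against 2720 CPM) of HOXA9 OFF. Prg2 itself was in 44.9% (39.0% to 50.9%) of cells with Cebpb and 58.4% (55.4% to 61.3%) of cells without at 48 h of HOXA9 OFF. Few CAF-1 OFF cells carried Prg2, 7.24% of cells with Cebpe and 0.936% of cells without at 48 h.

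Counts in the gene lists cover every gene with a UMI, including those under the mean of 20 CPM, and where the count over genes past that mean differs it is given too. They are to be read beside the shares of all genes past that mean. At 48 and 96 h of CAF-1 OFF, 2.76% and 5.22% were at least 2-fold higher and 0.0418% and 0.856% lower. Under HOXA9 OFF 13% and 18.1% were higher and 19.6% and 39.8% lower. Of 9 secondary granule genes, 3 (Lcn2, Mmp8 and Chil3) were at least 2-fold higher at both times under CAF-1 OFF and 8, all but Olfm4, under HOXA9 OFF. The median log2 ratio of the list at 96 h was 0.51 under CAF-1 OFF and 8.34 under HOXA9 OFF, beside -0.08 and -0.56 over all genes tested. Mmp8, a neutrophil collagenase, was at 24.2, 582 and 724 CPM under CAF-1 OFF and at 4.53, 122 and 4692 CPM under HOXA9 OFF. Lcn2, an iron-scavenging lipocalin, was at 8.78, 117 and 428 CPM under CAF-1 OFF and at 23.1, 1269 and 5813 CPM under HOXA9 OFF. Ltf was at 0 CPM in each of the 3 CAF-1 OFF libraries (a count of 3 UMIs there equals 0.537 to 0.712 CPM) and at 0, 143 and 3720 CPM under HOXA9 OFF. Ngp, a neutrophilic granule protein, was at 0, 0.179 and 0.556 CPM under CAF-1 OFF and at 0, 2275 and 11396 CPM under HOXA9 OFF. A Cebpe level of 785 CPM under CAF-1 OFF was therefore found beside no Ltf and next to no Ngp, and one of 704 CPM under HOXA9 OFF at 48 h beside both. Of the 4 genes of this list whose promoter matches are printed above, Lcn2 and Mmp8 were thus higher in both arms and Ltf and Ngp were not called under CAF-1 OFF.

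**Figure D5:**
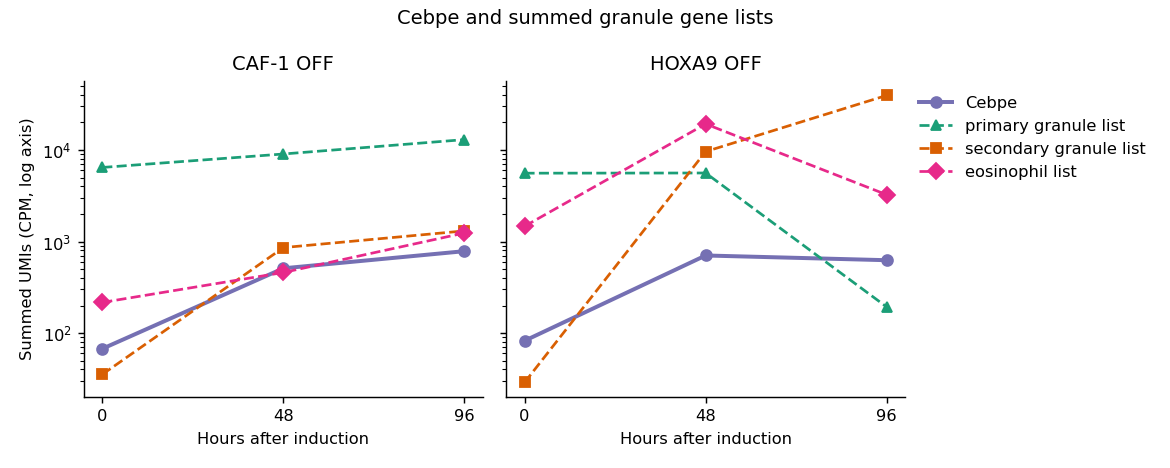
CPM of Cebpe (solid line) and summed CPM of the primary granule, secondary granule and eosinophil lists (dashed lines), on a log y axis, against hours after induction (x axis), under CAF-1 OFF (left) and HOXA9 OFF (right), 1 library per point. Cebpe lies at 785 and 625 CPM at 96 h, where the secondary granule list sums to 1308 CPM under CAF-1 OFF and 39544 CPM under HOXA9 OFF.

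Of 6 primary granule genes, Elane, Ms4a3 and Fcnb were at least 2-fold higher under CAF-1 OFF at both times and under HOXA9 OFF at 48 h. Under HOXA9 OFF at 96 h 5 were lower and Fcnb was higher, with a list median log2 ratio of -3.47, beside 1.68 at 96 h of CAF-1 OFF. Elane was at 129, 913 and 1386 CPM under CAF-1 OFF and at 48.2, 512 and 3.69 CPM under HOXA9 OFF. Ctsg, Prtn3 and Mpo, the other proteases and the myeloperoxidase of these granules, were at 5951, 1874 and 2415 CPM under CAF-1 OFF and at 11.6, 31.2 and 18.4 CPM under HOXA9 OFF at 96 h. Cebpe thus stayed at 625 CPM in a library in which the primary granule list had gone from 5584 to 193 CPM.

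Of 7 eosinophil genes, 6 had a UMI. Prg3 at 48 h and Prg2 and Prg3 at 96 h passed 2-fold under CAF-1 OFF, and 4 genes did under HOXA9 OFF at 48 h (3 of 3 past the mean of 20 CPM). Prg2 was at 141, 270 and 879 CPM under CAF-1 OFF and at 876, 16629 and 3021 CPM under HOXA9 OFF. The peroxidase gene Epx was at 0.475, 0.179 and 0 CPM under CAF-1 OFF and at 0, 44.8 and 1.70 CPM under HOXA9 OFF. At 96 h of HOXA9 OFF Prg2 and Ear2 were higher and Prg3 was lower than at 0 h.

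Among 5 cytokine receptors that C/EBP proteins are known to control, 1 (Csf2rb) was at least 2-fold higher under CAF-1 OFF at each time and all 5 under HOXA9 OFF (4 of 4 past the mean of 20 CPM, which Il6ra did not reach). Their median log2 ratio was 0.11 and 0.59 under CAF-1 OFF and 1.84 and 2.65 under HOXA9 OFF at 48 and 96 h. Csf3r, the granulocyte colony-stimulating factor receptor, was at 9.49, 11.1 and 20.02 CPM under CAF-1 OFF and at 5.97, 47.1 and 158 CPM under HOXA9 OFF. Csf2rb, the shared beta chain of the receptors for GM-CSF and related cytokines, was at 10.7, 54.7 and 112 CPM and at 27.0, 95.3 and 102 CPM. Csf2ra, the alpha chain of the GM-CSF receptor, was at 27.8, 30.6 and 46.9 CPM and at 15.04, 133 and 147 CPM. Csf1r, the macrophage colony-stimulating factor receptor, did not exceed 2.22 CPM under CAF-1 OFF and was at 0, 57.6 and 114 CPM under HOXA9 OFF. The interleukin receptor gene Il6ra was at 2.37 to 3.04 CPM under CAF-1 OFF and reached 51.4 CPM under HOXA9 OFF.

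Inflammatory genes, many of them targets of C/EBPβ, were counted next to Cebpb. Of 10, 1 and 3 were at least 2-fold higher at 48 and 96 h of CAF-1 OFF, and 3 and 7 at 48 and 96 h of HOXA9 OFF, where Il6 was lower. Among the 5 past the mean of 20 CPM, which Il6 was not, 1, 3, 3 and 5 were higher and none was lower. The median log2 ratio of the list at 96 h was 0.52 under CAF-1 OFF and 2.99 under HOXA9 OFF. Ccl3, a macrophage chemokine, was at 11.2, 59.8 and 81.0 CPM under CAF-1 OFF and at 19.1, 262 and 1016 CPM under HOXA9 OFF. Il1b was at 0.237, 5.37 and 9.27 CPM and at 0.477, 1.51 and 119 CPM. Il6, which gave C/EBPβ its older name as a nuclear factor of that cytokine, was at 23.5, 15.03 and 9.83 CPM and at 28.9, 8.10 and 5.39 CPM, in the opposite order to Cebpb in both arms.

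Genes for zipper proteins that pair with C/EBPs were counted too. Of 11, none at 48 h and Jund at 96 h were at least 2-fold higher under CAF-1 OFF. Under HOXA9 OFF 4 and 6 were higher, beside 13% and 18.1% of all genes. There 2, Ddit3 and Atf4, were lower at both times, beside 19.6% and 39.8% of all genes. The list medians at 96 h were 0.29 under CAF-1 OFF and 1.04 under HOXA9 OFF. Of the 8 past the mean of 20 CPM, 4 and 5 were higher under HOXA9 OFF. Fos was at 7.12, 5.01 and 11.5 CPM under CAF-1 OFF and at 7.16, 145 and 415 CPM under HOXA9 OFF, and Junb at 19.9, 24.3 and 26.7 CPM and at 17.4, 95.5 and 446 CPM. Ddit3, whose product CHOP pairs with C/EBPs and keeps them from their usual sites, was at 181, 165 and 205 CPM under CAF-1 OFF and at 382, 176 and 148 CPM under HOXA9 OFF. Atf4, the partner of C/EBPγ in the amino acid response, was at 186, 113 and 146 CPM and at 165, 65.2 and 61.9 CPM, so that its HOXA9 OFF libraries stood in the order of those of Ddit3.

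Of 12 genes of the amino acid response, 1 (Trib3) was at least 2-fold lower under CAF-1 OFF at 48 h, and 5 and 6 were lower at 48 and 96 h of HOXA9 OFF. Of the 6 past the mean of 20 CPM, which Trib3 was not, 0 were lower at 48 h of CAF-1 OFF and 3 and 4 were lower under HOXA9 OFF. The share of all genes lower there was 19.6% and 39.8%, and the list median at 96 h was -1.17 beside -0.56 over all genes. Psat1, an enzyme of serine synthesis, was at 431, 425 and 434 CPM under CAF-1 OFF and at 457, 55.7 and 1.70 CPM under HOXA9 OFF. Slc7a11, the cystine transporter, stood against this, at 27.0, 61.2 and 94.5 CPM and at 42.7, 114 and 453 CPM, and was the only one past 2-fold higher, under CAF-1 OFF at 96 h and under HOXA9 OFF at both times. Genes of proteins that mark C/EBPα for degradation were few. Of 3 measured, Rfwd2, the gene of the ubiquitin ligase COP1, was at 27.0, 28.4 and 23.9 CPM under CAF-1 OFF and at 51.5, 133 and 200 CPM under HOXA9 OFF. Trib1, its scaffold, was at 1.66, 3.58 and 6.86 CPM and at 4.53, 16.2 and 97.3 CPM, and the related Trib2 at 21.8, 29.7 and 28.5 CPM and at 9.78, 0.377 and 0 CPM.

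Of 6 genes of cell division that C/EBPα is known to oppose, none passed 2-fold under CAF-1 OFF, and Cdk4, Myb, Myc and Sox4 were lower at both times of HOXA9 OFF, where 39.8% of all genes were lower and the list median was -3.25 at 96 h. Myc was at 102, 90.0 and 95.1 CPM under CAF-1 OFF and at 94.7, 10.4 and 0.567 CPM under HOXA9 OFF. Of 7 myeloid factors that act with C/EBPs, Gfi1, a repressor protein that neutrophils need, was at 27.8, 86.2 and 146 CPM under CAF-1 OFF and at 59.7, 28.1 and 4.54 CPM under HOXA9 OFF. Spi1, which encodes PU.1, was at 166, 230 and 323 CPM and at 154, 814 and 1049 CPM. Gfi1 was the only one of the 7 past 2-fold under CAF-1 OFF. Under HOXA9 OFF 4 were higher at 48 h (Spi1, Runx1, Irf8 and Egr1), beside 13% of all genes. At 96 h 2 (Spi1 and Egr1) were higher and 2 (Gfi1 and Gata2) lower, beside 18.1% and 39.8% of all genes. Of the 5 past the mean of 20 CPM, 3 were higher at 48 h, and 1 was higher and 2 were lower at 96 h.

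The genes with a profile most like that of each member were found by the root mean square difference of centred log2 levels over the 6 libraries, among 4789 genes. Nearest to Cebpe was Acpp, an acid phosphatase, at 0.370, and it was the only gene within 0.5 of Cebpe. Clec5a followed at 0.541 and Ly6c2 at 0.563. Acpp was at 2.37, 27.2 and 72.7 CPM under CAF-1 OFF and at 0.955, 89.1 and 72.6 CPM under HOXA9 OFF. Nearest to Cebpb were Card19 at 0.178, Ctsd at 0.192 and Hcst at 0.206, among 263 genes within 0.5. Card19 was at 55.5, 96.4 and 127 CPM under CAF-1 OFF and at 73.3, 197 and 527 CPM under HOXA9 OFF. Cebpa and Cebpg had 2302 and 2020 genes within 0.5 on this scale, which has 10 CPM added and so shrinks ratios of low genes. The nearest were Faf1, Creb1 and Abhd2 for Cebpa and Lmo2, Tceb2 and Cxxc1 for Cebpg. Among the members themselves Cebpa and Cebpg were the closest pair at 0.223. Cebpb and Cebpe differed by 0.872, and the other pairs by 1.15 to 1.54.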

How the data were processed

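The authors deposited 1 table of whole-number counts, the unique molecular identifiers (UMIs) of 27998 genes in 7821 cell barcodes from 6 libraries of the 10x Chromium 3′ assay. The processing notes of the submitters name Cell Ranger, Seurat, Scanpy and the mouse build mm10. Duplicate molecules were collapsed by their UMIs, and no value was normalized. A barcode's suffix gave its library, and each library is 1 sample of its group. The members and gene lists were chosen with earlier results of these data known. One gene of the rule, Cebpd, was not analysed here.

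The filter of the study was applied (200 to 6000 genes and at most 10% mitochondrial UMIs per cell), which kept 5872 cells. UMIs were summed per library and given as CPM (the count of a gene per 1000000 counts of its library). Ratios were log2 of CPM plus 10, a gene was called at 2-fold, and the 4789 genes whose mean reached 20 CPM were held against this size. With 1 library per group there was no test and no p-value. Intervals are 95%, exact (Poisson for UMIs, Clopper-Pearson for shares and, conditional on the sum, for folds), and cover counting error only. For shares of cells, each cell was thinned once, at random, to 1300 UMIs. No doublet caller was used in the values reported, and Scrublet (scanpy 1.11.5) served as an alternative. Scaling factors came from edgeR 4.0.16. The steps were tested on simulated data. Counts in gene lists also took genes below the minimum. Genes named are the members, the 3 genes nearest to each, and in each list those with the highest mean CPM or those a small count turns on. Tools were Python 3.11.15, NumPy 2.4.6, SciPy 1.17.1 and Matplotlib 3.10.9.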

Additional observations from a re-analysis of the deposited data

Results flagged for a closer look

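Cebpa and Cebpg are listed because the arms moved in opposite directions with counting intervals on either side of no change, 1 library per arm and time. The log2 ratio of Cebpa over 0 h was 0.32 under CAF-1 OFF and -0.59 under HOXA9 OFF at 48 h, and 0.34 and -0.40 at 96 h. That of Cebpg at 96 h was 0.50 under CAF-1 OFF and -0.66 under HOXA9 OFF. The difference between the arms was not tested, since there was 1 library per group. The median of all genes was -0.23 at 48 h and -0.56 at 96 h under HOXA9 OFF. The value of Cebpa at 96 h of HOXA9 OFF was 0.00066 with TMM scaling, and that at 96 h of CAF-1 OFF was -0.00069 in cells of at most 5% mitochondrial UMIs.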

How the results depend on the processing

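Each of the 16 log2 ratios of the 4 members over 0 h was computed under 9 other settings. All 16 stayed inside the main counting interval with all barcodes, without the 131 cells called by Scrublet (2.23% of cells, 0.331% to 7.11% per library) and with only cells of at least 1300 UMIs, though Cebpg at 48 h of CAF-1 OFF went from -0.04 to 0.011 without the Scrublet cells.
A pseudocount of 1 CPM gave -1.11 for Cebpg at 48 h of HOXA9 OFF. With 50 CPM, the CAF-1 OFF values were 0.68 and 1.12 for Cebpb and 2.25 and 2.83 for Cebpe at 48 and 96 h. The HOXA9 OFF values were then -0.34 for Cebpa, 1.04 for Cebpb, 2.51 for Cebpe and -0.46 for Cebpg at 48 h, and 2.05 for Cebpb, 2.35 for Cebpe and -0.36 for Cebpg at 96 h.
TMM scaling moved HOXA9 OFF values to -0.35 for Cebpa, 1.64 for Cebpb and 3.24 for Cebpe at 48 h, and to 0.00066 for Cebpa, 2.96 for Cebpb, 3.25 for Cebpe and -0.28 for Cebpg at 96 h. Median-of-ratios scaling gave 1.58 for Cebpb and 3.17 for Cebpe at 48 h, and 0.068 for Cebpa, 3.04 for Cebpb, 3.33 for Cebpe and -0.22 for Cebpg at 96 h. Leaving mitochondrial and ribosomal protein genes out of the total gave -0.79, 2.13, 2.41 and -1.04 for Cebpa, Cebpb, Cebpe and Cebpg at 96 h.
With at most 5% mitochondrial UMIs, CAF-1 OFF at 96 h had -0.00069 for Cebpa, 1.85 for Cebpb and 3.61 for Cebpe, and HOXA9 OFF had 3.47 and 3.20 for Cebpe at 48 and 96 h. The cause of these shifts was not tested. Cebpb and Cebpe were higher under every setting run.
TMM and median-of-ratios scaling moved the median log2 ratio of all genes in HOXA9 OFF from -0.23 to 0.018 and -0.033 at 48 h and from -0.56 to -0.19 and -0.12 at 96 h, and leaving out those genes moved it to -0.94 at 96 h. Of the genes called, 39.8% were higher at 48 h, 54.6% with TMM and 51.2% with median-of-ratios scaling, and at 96 h 31.2%, 44.0% and 46.4%.
With a pseudocount of 1 CPM, the genes at least 2-fold higher under CAF-1 OFF went from 132 to 260 at 48 h and from 250 to 425 at 96 h, and those lower from 2 to 8 and from 41 to 93. TMM scaling left 1 and 23 lower. Without a minimum level, 4 genes were lower at 48 h of CAF-1 OFF and 1391 against 865 higher at 96 h of HOXA9 OFF. At a 4-fold size, 22 and 60 genes were higher and 1 and 1 lower under CAF-1 OFF, and 204 and 412 higher and 152 and 786 lower under HOXA9 OFF, where 940 and 1906 were lower at 2-fold. At a 1.5-fold size, 339 and 561 were higher and 61 and 421 lower under CAF-1 OFF, and at 48 h of HOXA9 OFF 981 against 621 were higher and 1678 lower. All 24 shares of cells with a UMI moved when cells were thinned to 2600 UMIs or not at all. At 1300 UMIs, 1 moved against the share expected over all thinnings, 4 with all barcodes and 2 without the Scrublet cells. Cebpb at 96 h of CAF-1 OFF was among them each time, at 17.8%, 16.6% and 18.2% against 13.7%, beside 12.1%, 12.9% and 12.6% at 48 h. The others were Cebpa at 48 h of HOXA9 OFF (3.59%), Cebpe at 96 h of CAF-1 OFF (56.0%) and at 0 h of HOXA9 OFF (10.2%) with all barcodes, and Cebpb at 48 h of HOXA9 OFF (23.2%) without the Scrublet cells. Of 36 shares of cells with a pair, 1 moved against the expected share, none with all barcodes and 3 without the Scrublet cells, where Cebpb with Cebpe was at 10.9% at 96 h of CAF-1 OFF and 17.6% at 96 h of HOXA9 OFF. No paired analysis was possible because each group had 1 library, and for the same reason no replicate could be left out.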
